A study of Mus musculus with 24 samples.

Results

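The genes of MHC class I antigen presentation were followed across 8 groups of Nf2-null mouse Schwann cells. They were chosen by name, as the rows of the deposited count table whose gene symbol equals one of 10 symbols (H2-K1, H2-D1, B2m, Tap1, Tap2, Tapbp, Psmb8, Psmb9, Psmb10 and Nlrc5). All 10 were found among 49315 genes, and all 10 were among the 16070 genes that passed the filter on low counts. The cells were MS03, 1 immortalised Schwann cell line in which both floxed copies of Nf2, the gene for the tumour suppressor merlin, had been deleted by Cre, so the vehicle controls carried the deletion too. The strain of the mice was not given in the sources used here. Cells grown in DMEM with fetal bovine serum received the solvent DMSO or 1 of 7 compounds directed at focal adhesion kinase (FAK, gene Ptk2) for 24 h, with 3 libraries per group and 24 in all. Defactinib, VS-4718, GSK2256098 and IN10018, which inhibit the kinase, were used at 1 µM. PROTAC FAK degrader 1 was also used at 1 µM, and the degraders GSK215 and BSJ-04-146 were used at 0.1 µM. A PROTAC joins a ligand of its target to a ligand of an E3 ubiquitin ligase, so that the target protein is ubiquitinated and degraded. The labels call the libraries of a group biological replicates and say no more, so the p-values measure the spread between these cultures of 1 line.

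MHC class I molecules display peptides from inside the cell to CD8 T cells and to natural killer cells. Each is a heavy chain bound to beta-2-microglobulin, loaded in the endoplasmic reticulum with peptides that the proteasome cuts and the TAP transporter carries in, while tapasin holds the empty molecule at the transporter. Interferon-gamma raises most of these genes together through the transcription factor IRF1 and the class I transactivator NLRC5, and it exchanges the constitutive proteasome subunits for the immunoproteasome subunits.

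Library totals lay between 14472462 and 27449516 counts. They were lower in the GSK215 libraries (14472462 to 19331704), the BSJ-04-146 libraries (16112245 to 17794597) and the PROTAC FAK degrader 1 libraries (18401466 to 21588406) than in the DMSO libraries (22952048 to 27449516). The count of each gene was scaled to its TMM-adjusted library total in the counts-per-million unit (CPM), and the part of depth in the results was not tested beyond the alternatives given here. Ptk2 was targeted at the protein level, so its mRNA does not check the labels, and gene counts do not show the deleted exon of Nf2. Of 10 Schwann lineage markers, 9 passed the filter. Sox10, the transcription factor that defines the lineage, had 238 to 2080 counts in each library, whereas the glial marker S100b was at or below 18 counts.

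All 10 genes were detected, but at very different levels. Per kilobase of exon, the DMSO level was 329 CPM for B2m (beta-2-microglobulin), 181 for H2-D1 and 79.0 for H2-K1, the heavy chain genes. It was 31.9 for Tapbp (tapasin), 21.6 for Psmb10 (the immunoproteasome subunit with trypsin-like activity) and 6.75 for Tap2, which encodes one chain of the transporter. The partner chain gene Tap1 stood at 0.594 CPM per kilobase, with Psmb8 (0.364), Nlrc5 (0.147) and Psmb9 (0.116) below it. The constitutive subunits that the immunoproteasome subunits replace were far higher in the same unit, at 99.9 for Psmb5, 104 for Psmb6 and 70.8 for Psmb7. In the vehicle-treated cells the heavy chains and beta-2-microglobulin were thus abundant transcripts, while Tap1, Psmb8, Psmb9 and Nlrc5 were scarce. Reads on the 10 genes together made up 0.113% of all counts with DMSO and with IN10018, 0.0854% with PROTAC FAK degrader 1 and 0.144% with GSK215.

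In GRCm38, 7 of the 10 genes lie on chromosome 17 in or beside the mouse MHC. From the GENCODE M21 annotation, Tapbp spans chr17:33915899-33929292, H2-K1 chr17:33996017-34000347, Psmb9 chr17:34181987-34187764, Tap1 chr17:34187553-34197225, Psmb8 chr17:34197721-34201454, Tap2 chr17:34203527-34216321 and H2-D1 chr17:35262730-35267499. B2m lies at chr2:122147686-122153083, Psmb10 at chr8:105935735-105938444 and Nlrc5 at chr8:94434356-94527272. The 250 bases upstream of the start site are shown from RefSeq (GRCm38.p6), 5′ to 3′ in the direction of the gene, for the heavy and light chain genes, which fell together with PROTAC FAK degrader 1, and for Tap1, which rose with it. They are H2-K1 (chr17:34000348-34000597, minus strand), H2-D1 (chr17:35262844-35263093, plus strand), B2m (chr2:122147437-122147686, plus strand) and Tap1 (chr17:34187306-34187555, plus strand). Capitals mark matches, on either strand, to the NF-kB consensus, to the interferon-stimulated response element core GAAANNGAAA, to the gamma-activated sequence TTCNNNGAA and to the CCAAT box CCAAT.
H2-K1: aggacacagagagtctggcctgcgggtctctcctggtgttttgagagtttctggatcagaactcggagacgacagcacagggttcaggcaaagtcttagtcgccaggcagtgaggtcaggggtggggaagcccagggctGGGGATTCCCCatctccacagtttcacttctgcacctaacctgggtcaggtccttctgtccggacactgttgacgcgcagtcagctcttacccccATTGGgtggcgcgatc
H2-D1: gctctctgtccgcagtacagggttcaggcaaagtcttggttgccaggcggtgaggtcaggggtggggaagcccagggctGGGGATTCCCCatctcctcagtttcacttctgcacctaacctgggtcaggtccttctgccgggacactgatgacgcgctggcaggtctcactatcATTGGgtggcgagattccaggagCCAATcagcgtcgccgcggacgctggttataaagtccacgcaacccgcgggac
B2m: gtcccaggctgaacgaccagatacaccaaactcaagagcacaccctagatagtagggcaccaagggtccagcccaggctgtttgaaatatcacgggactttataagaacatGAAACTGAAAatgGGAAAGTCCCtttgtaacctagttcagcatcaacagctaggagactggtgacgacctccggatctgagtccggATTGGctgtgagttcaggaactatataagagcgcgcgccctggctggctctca
Tap1: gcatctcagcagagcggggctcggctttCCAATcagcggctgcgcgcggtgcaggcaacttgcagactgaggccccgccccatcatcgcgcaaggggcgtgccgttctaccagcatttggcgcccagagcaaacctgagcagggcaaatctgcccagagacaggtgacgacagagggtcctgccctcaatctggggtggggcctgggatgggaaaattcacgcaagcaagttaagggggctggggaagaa

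The windows of H2-K1, H2-D1 and B2m each held a match to the NF-kB consensus, which 7.25% of 32851 promoter windows of this length held. B2m also held the response element core (2.98% of windows), and Psmb8 alone of the matched genes held the gamma-activated sequence (7.02%). A CCAAT box stood in the windows of B2m, H2-D1, H2-K1, Psmb9, Tap1 and Tapbp, as in 33.8% of all windows. In 190 aligned positions, the H2-K1 and H2-D1 windows were identical at 170 (89.5%). The RefSeq starts of Tap1 and Psmb9, which are transcribed away from each other, lie 226 bases apart, and their windows share 225 bases. The GENCODE spans of the same genes overlap, since Psmb9 starts further upstream there. RefSeq entries were matched for 8 of the 10 genes, without Tap2 and Nlrc5. The motif matches are descriptions of these letters, not sites of binding. Only these motifs were searched, so a window without a match may hold other forms of the same elements, or other elements.

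Against DMSO, the compounds divided these genes in different ways. IN10018 moved none of them past the threshold, an adjusted p under 0.05 from edgeR's quasi-likelihood test. The other 3 kinase inhibitors raised the gene for tapasin by 1.23- to 1.30-fold and Tap2 by 1.17- to 1.22-fold. GSK215 and BSJ-04-146 raised both of these further, together with Psmb8 and Nlrc5, and lowered H2-K1. PROTAC FAK degrader 1 lowered H2-K1, H2-D1, B2m, Tapbp and Psmb10 and raised Tap1, Tap2, Psmb8 and Nlrc5. The plot of fold changes gives all 70 values, of which 33 passed the test.

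Each count has to be read against how many genes of the whole table were called. With PROTAC FAK degrader 1, 9 of the 10 genes were called (4 higher, 5 lower), against 66.8% of all 16070 genes tested. In that comparison 34.1% of all genes were higher and 32.7% lower. With GSK215, 7 were called (6 higher, 1 lower) against 54.7% of all genes (27.4% higher, 27.2% lower), and with BSJ-04-146 the 6 higher and 1 lower were the same genes, against 54.6% (27.7% higher, 26.9% lower). VS-4718 raised 4 and lowered 0, against 39.2% of all genes called (20.4% higher, 18.9% lower). Defactinib raised 3 and lowered 1, against 22.4% (11.4% higher, 11% lower). GSK2256098 raised 2 and lowered 0, against 12.5% (6.36% higher, 6.09% lower). With IN10018, 0 were called by edgeR, against 13.3% of all genes (6.44% higher, 6.85% lower), and 1 (B2m) had an unadjusted p under 0.05. DESeq2 and limma-trend also called 0 with IN10018. The median log2 fold change over the 10 genes was 0.44 with GSK215, 0.20 with BSJ-04-146, 0.16 with VS-4718, 0.13 with GSK2256098, 0.10 with defactinib, 0.05 with PROTAC FAK degrader 1 and 0.03 with IN10018, where the median over all genes lay between −0.00 and 0.02. All 7 comparisons share the same 3 DMSO libraries.

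**Figure D1:**
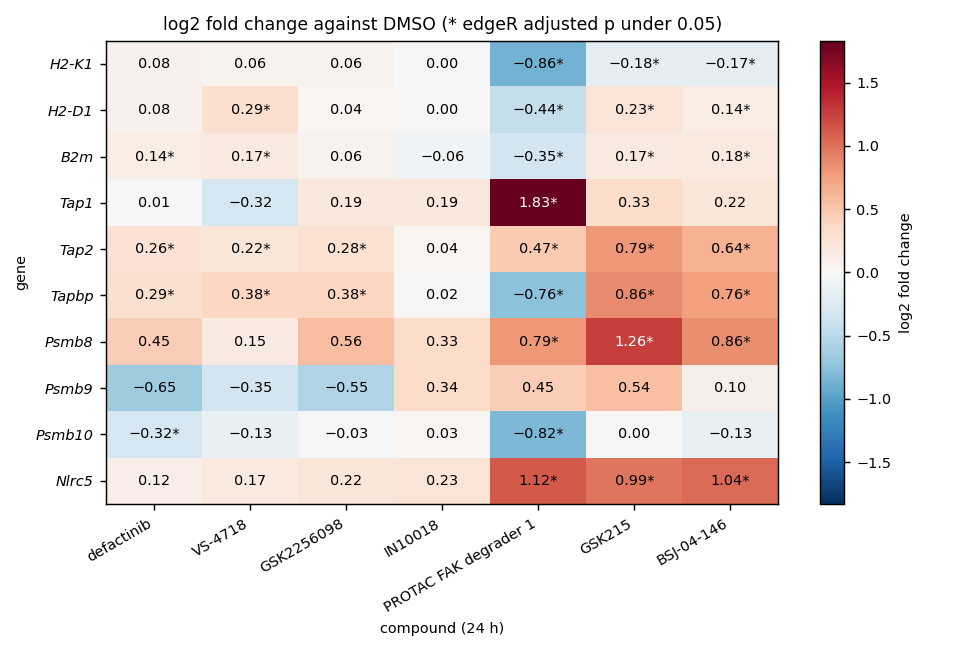
Log2 fold change of each of the 10 genes against DMSO after 24 h, for each compound (columns), from the edgeR fit, with an asterisk where the adjusted p was under 0.05. The PROTAC FAK degrader 1 column holds both the highest value (Tap1, 1.83) and the lowest (H2-K1, −0.86), and the IN10018 column holds no asterisk.

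The composition of the samples was looked at beside these changes. Of 10 macrophage and dendritic cell markers, 3 passed the filter, and Ptprc, Adgre1, Itgam and C1qa, which define these cells, had 0 or 1 count in every library. Cd68, a lysosomal glycoprotein that other cells also make, rose with PROTAC FAK degrader 1 (log2 1.70), GSK215 (0.82), BSJ-04-146 (1.17) and VS-4718 (0.42, but 0.33 without DMSO replicate 1 and 0.27 without VS-4718 replicate 1, where the call was lost). Of the 3 tested, 2 rose and 0 fell with PROTAC FAK degrader 1 (median log2 change 1.64, where 34.1% of all genes rose). The same counts held with BSJ-04-146 (1.11, where 27.7% rose). With GSK215 (27.4%) and VS-4718 (20.4%), 1 rose and 0 fell, and none was called with the other compounds. Csf1r and Cx3cr1, tested beside Cd68, held 3 to 20 and 2 to 15 counts in each library. The summed level of the macrophage and dendritic cell list was 4.21 to 4.33 CPM with DMSO and 12.1 to 12.5 CPM with PROTAC FAK degrader 1. None of 8 T, NK and B cell markers and none of 4 endothelial markers passed the filter, with summed counts of 2 to 14 and 4 to 21 per library. All 9 Schwann lineage markers tested rose with GSK215 (median log2 change 2.38) and BSJ-04-146 (2.21), 7 rose with VS-4718, 6 with GSK2256098, 5 with defactinib, 1 rose and 1 fell with IN10018, and 2 rose and 2 fell with PROTAC FAK degrader 1. Of all genes, 27.4% rose with GSK215, 27.7% with BSJ-04-146, 20.4% with VS-4718, 6.36% with GSK2256098, 11.4% with defactinib, 6.44% with IN10018 and 34.1% with PROTAC FAK degrader 1. The summed level of the Schwann lineage markers was 66.8 to 67.9 CPM with DMSO and 67.9 to 70.8 with PROTAC FAK degrader 1. It was 303 to 308 with GSK215, 271 to 297 with BSJ-04-146 and 140 to 153 with VS-4718. Of 5 fibroblast markers, 3 were tested. The summed level of that list was 396 to 415 CPM with DMSO and 291 to 298 with PROTAC FAK degrader 1. It was 470 to 477 with GSK215 and 362 to 394 with BSJ-04-146. Nearly all of it was Col1a1, which alone held 282 to 502 CPM over the 24 libraries. Lum held 0 counts in each library, Dcn at most 3 and Pi16 2 to 16. The part of these marker changes in the class I values was not tested, and in bulk RNA fewer cells of a type and less RNA per cell cannot be told apart.

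**Figure D2:**
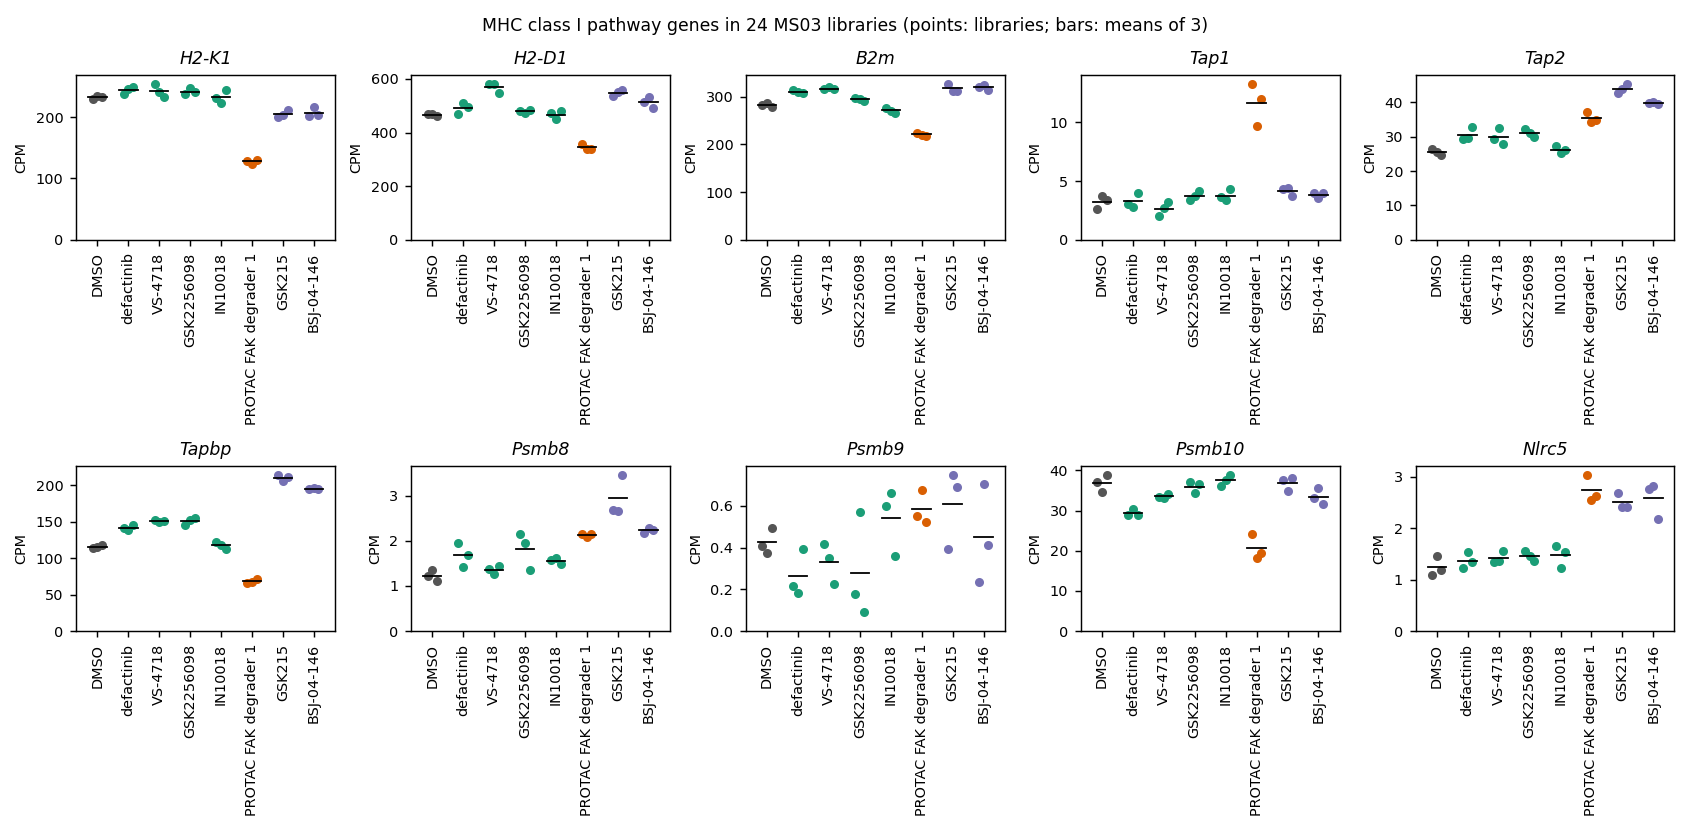
Level of each gene in CPM (vertical axes, from 0) in the 24 libraries, with points for libraries and bars for the means of 3, grouped by compound. H2-K1 was lowest with PROTAC FAK degrader 1 (124 to 131 CPM against 229.7 to 235 with DMSO), and the Psmb9 points, which rest on 2 to 14 counts, spread over all groups.

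The heavy chain H2-K1 fell with all 3 degraders, and most with PROTAC FAK degrader 1. Its level was 229.7, 235 and 232 CPM in the DMSO libraries. It was 129, 124 and 131 CPM with PROTAC FAK degrader 1, 199.5, 203 and 212 CPM with GSK215 and 202, 216 and 203 CPM with BSJ-04-146. All 9 degrader libraries lay below all DMSO libraries. With PROTAC FAK degrader 1 the level was 55.1% of DMSO (log2 −0.86, SE 0.0364, edgeR adjusted p = 1.18e-22). With GSK215 it was 88.3% (−0.18, SE 0.0354, edgeR adjusted p = 3.88e-05) and with BSJ-04-146 it was 89.2% (−0.17, edgeR adjusted p = 0.000126). The last pair of calls depended on the scaling. When the library total alone set the scale, the change was −0.06 with GSK215 (edgeR adjusted p = 0.156) and −0.06 with BSJ-04-146 (edgeR adjusted p = 0.164), while that scaling moved the median of all genes to 0.143 and 0.126, so that relative to it H2-K1 lay at −0.20 and −0.18. The kinase inhibitor libraries held 238, 246 and 249 CPM with defactinib, 254, 241 and 233 CPM with VS-4718, 238, 247 and 241 CPM with GSK2256098 and 231, 223 and 244 CPM with IN10018. Their log2 changes of 0.00 to 0.08 did not pass the test, though with VS-4718 the change passed with library totals (0.10, edgeR adjusted p = 0.0127).

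H2-D1, the other classical heavy chain in this table, did not follow H2-K1. It had 468, 471 and 461 CPM with DMSO. It had 356, 340.0 and 337 CPM with PROTAC FAK degrader 1, all below DMSO, and fell to 73.8% (log2 −0.44, SE 0.0342, edgeR adjusted p = 2.06e-14). With VS-4718 it had 581, 581 and 549 CPM, all above DMSO, and rose 1.22-fold (0.29, edgeR adjusted p = 4.29e-09). The values were 534, 551 and 559 CPM with GSK215 (1.17-fold, edgeR adjusted p = 2.09e-07) and 513, 532 and 492 CPM with BSJ-04-146 (1.10-fold, edgeR adjusted p = 0.000803), so that both groups stood clear above DMSO although H2-K1 fell in them. The rises had the same direction when library totals replaced TMM, at log2 0.36 in place of 0.23 with GSK215 and 0.24 in place of 0.14 with BSJ-04-146. With defactinib (471, 511 and 497 CPM), GSK2256098 (481, 474 and 485 CPM) and IN10018 (471, 449.8 and 479 CPM) the changes did not pass the test. With defactinib, H2-D1 and H2-K1 passed when library totals replaced TMM (0.10 and 0.09, edgeR adjusted p = 0.0222 and 0.0417) and within the 6 libraries compared (0.08 and 0.08), which raised the number of the 10 genes called from 4 to 6.

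Dividing the raw counts of H2-K1 by those of H2-D1 within each library takes out any library scaling. This ratio was chosen after the values were seen. It was 0.490, 0.499 and 0.504 with DMSO (0.498 ± 0.00696, SD, n = 3). It was 0.362, 0.366 and 0.388 with PROTAC FAK degrader 1, 0.373, 0.369 and 0.379 with GSK215, 0.394, 0.406 and 0.413 with BSJ-04-146 and 0.437, 0.415 and 0.424 with VS-4718. All 12 of these libraries lay below all DMSO libraries. With defactinib (mean 0.497), GSK2256098 (0.504) and IN10018 (0.498) the libraries overlapped DMSO. The exact two-sided permutation p of each of the 4 lower groups was 0.1, the smallest that 3 against 3 libraries can give, so this test cannot reach 0.05. Since no libraries overlapped, leaving out each in turn could not bring these groups up to DMSO. It shows only how far the difference moved. The difference in the ratio stayed within −0.134 and −0.121 (PROTAC FAK degrader 1), −0.128 and −0.121 (GSK215), −0.0978 and −0.0883 (BSJ-04-146) or −0.0782 and −0.0671 (VS-4718). The ratio of H2-D1 to B2m counts moved less in proportion, from 1.65 ± 0.00565 with DMSO to 1.80 with VS-4718 and 1.56 with PROTAC FAK degrader 1. H2-K1 and H2-D1 share sequence with other class I genes: 9.63% of the 50-base stretches of H2-K1 and 12.8% of those of H2-D1 occur in another annotated gene, and how such reads were counted was not given in the sources used here, so both levels carry that uncertainty.

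**Figure D3:**
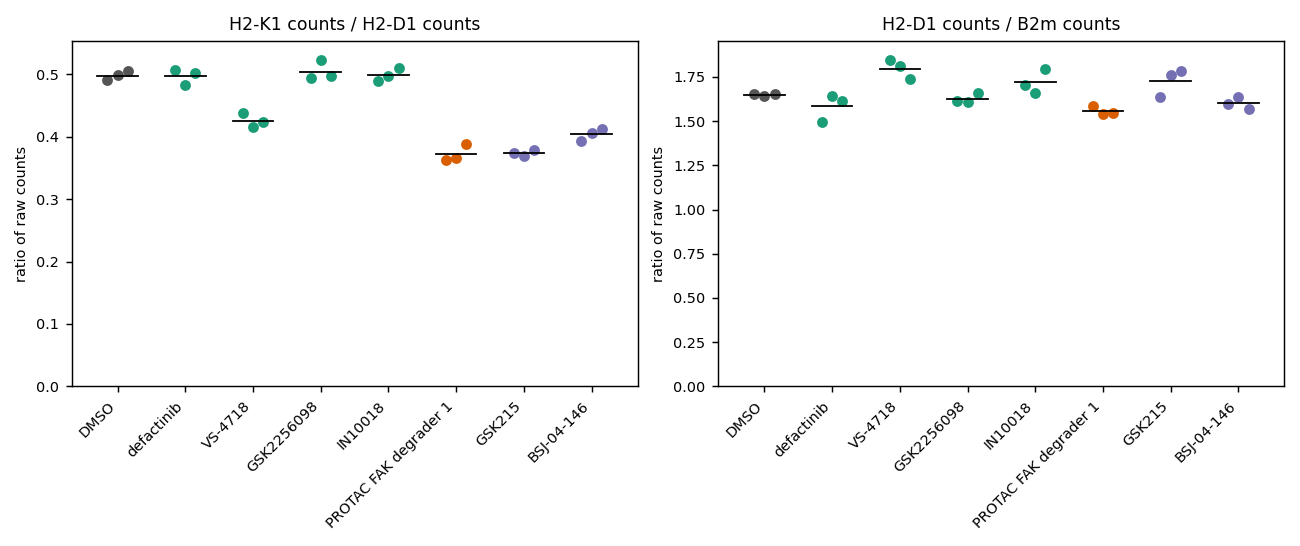
Ratio of raw counts within each library, H2-K1 to H2-D1 at left and H2-D1 to B2m at right, with points for the 3 libraries of each group, bars for means and axes from 0. In the left panel the libraries of VS-4718 and of the 3 degraders lie between 0.362 and 0.437, below the DMSO libraries at 0.490 to 0.504.

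B2m, which encodes the light chain that every classical class I molecule needs, moved by little in each direction but with narrow errors. It had 283, 287 and 279 CPM with DMSO. It had 225, 221 and 218 CPM with PROTAC FAK degrader 1, all lower, and fell to 78.2% (log2 −0.35, SE 0.0283, edgeR adjusted p = 3.87e-14). It rose 1.10-fold with defactinib (314, 311 and 308 CPM, edgeR adjusted p = 0.000281) and 1.12-fold with VS-4718 (315, 321 and 316 CPM, edgeR adjusted p = 5.32e-06). The rise was 1.12-fold with GSK215 (327, 313 and 313 CPM, edgeR adjusted p = 2.78e-06) and 1.13-fold with BSJ-04-146 (321, 325 and 314 CPM, edgeR adjusted p = 9.85e-07). The libraries of these 4 groups lay above all DMSO libraries. With library totals in place of TMM the log2 rises with GSK215 and BSJ-04-146 were 0.29 and 0.29 in place of 0.17 and 0.18. GSK2256098 libraries (298, 295 and 292 CPM) also all lay above DMSO, but the change of 0.06 did not pass the test (edgeR adjusted p = 0.166). IN10018 libraries held 277, 271 and 267 CPM, all below DMSO, but the change of −0.06 did not pass the test (edgeR adjusted p = 0.166).

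The transporter genes behaved differently from each other. Tap1 had 2.62, 3.72 and 3.42 CPM with DMSO, from 58, 99 and 83 counts. With PROTAC FAK degrader 1 it had 13.3, 9.65 and 12.0 CPM, from 289, 185 and 229 counts. These 3 libraries lay above every other library of the series, the highest of which held 4.38 CPM. The rise was 3.56-fold (log2 1.83, SE 0.140, edgeR adjusted p = 9.95e-15), the largest change among the 10 genes. It was 1.11 on the log2(CPM + 4) scale of the limma fit, where it also passed. With GSK215 (4.33, 4.38 and 3.70 CPM) the change of 0.33 did not pass the test (edgeR adjusted p = 0.0940), except with library totals in place of TMM (0.45, edgeR adjusted p = 0.0203). The other 5 compounds gave log2 changes from −0.32 with VS-4718 to 0.22 with BSJ-04-146, none of which passed. Tap1 shares 212 exonic bases with Psmb9 on the other strand, and Psmb9 itself held 2 to 14 counts in each library.

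Tap2, the other chain of the transporter, rose with 6 of the 7 compounds. It had 26.4, 25.4 and 24.8 CPM with DMSO. It had 42.6, 44.0 and 45.4 CPM with GSK215, 39.8, 40.1 and 39.4 CPM with BSJ-04-146 and 37.1, 34.3 and 34.7 CPM with PROTAC FAK degrader 1. The rises were 1.73-fold (log2 0.79, edgeR adjusted p = 2.94e-15), 1.56-fold (0.64, edgeR adjusted p = 1.54e-12) and 1.39-fold (0.47, SE 0.0567, edgeR adjusted p = 1.73e-09). The kinase inhibitor groups came next, at 32.3, 31.0 and 29.8 CPM with GSK2256098, 29.2, 29.7 and 32.8 CPM with defactinib and 29.2, 32.4 and 27.7 CPM with VS-4718. These 9 libraries stood above the DMSO libraries, and their rises of 1.22-, 1.20- and 1.17-fold passed the test (edgeR adjusted p = 0.000517, 0.000576 and 0.00155), while the 3 groups overlapped each other. With IN10018 (27.2, 25.2 and 26.1 CPM) the libraries overlapped DMSO.

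Tapbp showed the widest spread of the abundant genes, with the 3 degraders at both ends. It encodes tapasin, the chaperone that joins class I molecules to TAP. It had 114, 115 and 118 CPM with DMSO. With GSK215 it had 214, 206 and 212 CPM and with BSJ-04-146 194, 197 and 195 CPM, above every other library. With PROTAC FAK degrader 1 it had 66.3, 67.6 and 71.5 CPM, below every other library. The changes were a 1.82-fold rise (log2 0.86, edgeR adjusted p = 2.32e-23), a 1.69-fold rise (0.76, edgeR adjusted p = 1.87e-21) and a fall to 59.2% (−0.76, SE 0.0366, edgeR adjusted p = 8.34e-21). The libraries held 145, 153 and 155 CPM with GSK2256098, 152, 149 and 151 CPM with VS-4718 and 141, 138 and 146 CPM with defactinib, which were rises of 1.30-, 1.30- and 1.23-fold (edgeR adjusted p = 5.09e-11, 4.46e-12 and 2.48e-08). IN10018 libraries (122, 118 and 113 CPM) overlapped DMSO. An antisense gene, Gm19412, covers 24.9% of the exonic bases of Tapbp, and held 6 to 29 counts in a library. Zbtb22, on the same strand, shares 149 exonic bases with Tapbp (4.11%) and held 480 to 886 counts, and how reads in the shared bases were counted was not given in the sources used here.

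The immunoproteasome subunits did not move together. Psmb8, the subunit that takes the place of Psmb5, had 1.22, 1.35 and 1.11 CPM with DMSO, from 27, 36 and 27 counts. It had 2.69, 2.67 and 3.46 CPM with GSK215, 2.18, 2.28 and 2.25 CPM with BSJ-04-146 and 2.16, 2.09 and 2.15 CPM with PROTAC FAK degrader 1. All 9 libraries lay above DMSO, with rises of 2.39-fold (log2 1.26, SE 0.191, edgeR adjusted p = 4.44e-07), 1.81-fold (0.86, edgeR adjusted p = 0.000380) and 1.73-fold (0.79, SE 0.198, edgeR adjusted p = 0.000600). On the scale of log2(CPM + 4) these 3 changes were 0.41, 0.25 and 0.23 and passed the test of limma too. The offset of 4 exceeds the level of the gene and makes these values smaller. With the kinase inhibitors, 1.27 to 2.14 CPM, the values of 0.15 to 0.56 did not pass.

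Psmb10, which takes the place of Psmb7, was called higher with 0 compounds and lower with 2. It had 37.0, 34.6 and 38.8 CPM with DMSO. It had 24.3, 18.3 and 19.4 CPM with PROTAC FAK degrader 1, all lower, and fell to 56.5% (log2 −0.82, SE 0.0671, edgeR adjusted p = 6.52e-14). With defactinib it had 29.0, 30.4 and 29.0 CPM, also all lower, and fell to 80.1% (−0.32, edgeR adjusted p = 0.000163). The VS-4718 libraries (33.3, 33.2 and 34.1 CPM) lay just below DMSO, without passing the test (−0.13). The other 4 compounds gave values from −0.13 to 0.03. Psmb9, which takes the place of Psmb6, had 2 to 14 counts in each library, 9, 10 and 12 of them with DMSO. No change of it was called, and at this depth its log2 values, from −0.65 with defactinib to 0.54 with GSK215, came with wide errors (SE 0.433 with PROTAC FAK degrader 1).

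Nlrc5, the class I transactivator, rose with the 3 degraders by similar amounts. It had 1.09, 1.47 and 1.19 CPM with DMSO, from 24, 39 and 29 counts. It had 3.03, 2.56 and 2.63 CPM with PROTAC FAK degrader 1, 2.69, 2.40 and 2.42 CPM with GSK215 and 2.77, 2.82 and 2.19 CPM with BSJ-04-146. These 9 libraries lay above all 15 others, of which the highest held 1.66 CPM. The rises were 2.18-fold (log2 1.12, SE 0.186, edgeR adjusted p = 1.39e-06), 1.98-fold (0.99, edgeR adjusted p = 3.05e-05) and 2.06-fold (1.04, edgeR adjusted p = 1.22e-05). On the log2(CPM + 4) scale they were 0.36, 0.31 and 0.33 and also passed. The kinase inhibitors gave 0.12 to 0.23, none of which passed. Nlrc5 thus rose both where H2-D1, B2m and Tapbp fell (PROTAC FAK degrader 1) and where they rose (GSK215 and BSJ-04-146).

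The compounds used at the same dose were then compared with each other, in 11 pairs, with p-values adjusted over all genes and all pairs together. PROTAC FAK degrader 1 differed from each kinase inhibitor in 8 or 9 of the 10 genes. The counts were 8 against defactinib (66.6% of all genes called), 9 against VS-4718 (66.5%), 8 against GSK2256098 (65.5%) and 8 against IN10018 (61.4%). The log2 difference of H2-K1, degrader minus inhibitor, ranged from −0.93 (95% interval −1.01 to −0.86) against defactinib to −0.86 (−0.94 to −0.79) against IN10018. Tapbp was lower by −1.14 to −0.78, H2-D1 by −0.73 to −0.44, B2m by −0.52 to −0.29 and Psmb10 by −0.85 to −0.50. Tap1 was higher with the degrader by 1.64 to 2.15, Nlrc5 by 0.89 to 1.00 and Tap2 by 0.19 to 0.44. Psmb8 passed only against VS-4718 (0.64, edgeR adjusted p = 0.00609), and its intervals were −0.05 to 0.72 against defactinib and −0.15 to 0.61 against GSK2256098. Against IN10018 the unadjusted interval of Psmb8 was 0.06 to 0.85, and the adjusted p was 0.0562 by edgeR, with a pass under library totals (edgeR adjusted p = 0.0248) and by limma-trend. Psmb9, at its low counts, passed against none of them with TMM and all libraries. It passed against defactinib with library totals, within the 6 libraries and without defactinib replicate 3, and against GSK2256098 without GSK2256098 replicate 2.

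**Figure D4:**
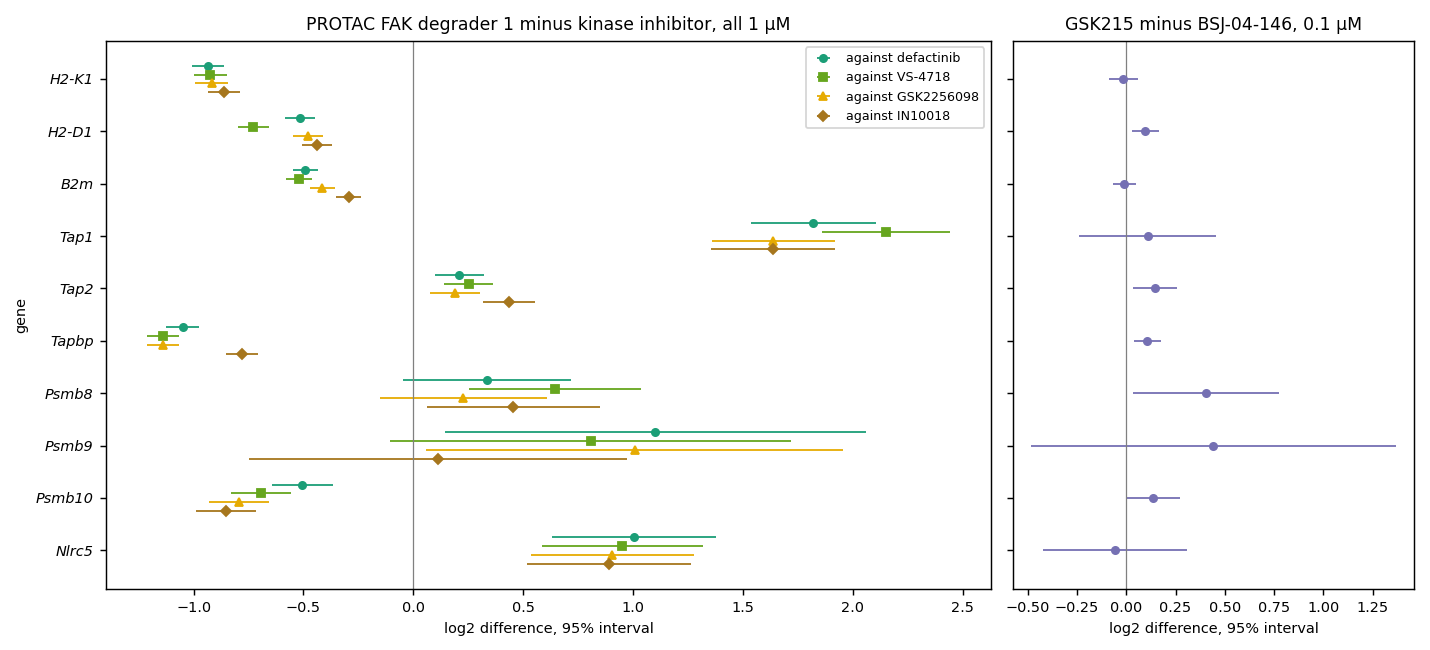
Log2 difference between compounds used at the same dose, with 95% intervals, PROTAC FAK degrader 1 minus each kinase inhibitor at 1 µM (left) and GSK215 minus BSJ-04-146 at 0.1 µM (right, on its own scale). At left H2-K1 lies between −0.93 and −0.86 against all 4 inhibitors and Tap1 between 1.64 and 2.15, and at right 3 of the 10 genes passed the test, by 0.10 to 0.15.

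Among the kinase inhibitors the differences were smaller. VS-4718 and IN10018 differed in 6 genes (41.2% of all genes called). H2-D1 (0.29), B2m (0.23), Tap2 (0.18) and Tapbp (0.36) were higher with VS-4718, and Tap1 (−0.52) and Psmb10 (−0.16) were lower. Defactinib and IN10018 differed in 4 (36%), with B2m (0.20), Tap2 (0.23) and Tapbp (0.27) higher and Psmb10 (−0.35) lower with defactinib. GSK2256098 and IN10018 differed in 3 (24.9%), with B2m (0.12), Tap2 (0.25) and Tapbp (0.36) higher with GSK2256098. VS-4718 and GSK2256098 differed in 3 (30%), with H2-D1 (0.25) and B2m (0.11) higher and Tap1 (−0.51) lower with VS-4718. Defactinib and VS-4718 differed in 3 (35.5%), H2-D1 (−0.21), Tapbp (−0.09) and Psmb10 (−0.19), all lower with defactinib. Defactinib and GSK2256098 differed in 3 (17.9%), with B2m (0.08) higher and Tapbp (−0.09) and Psmb10 (−0.29) lower with defactinib.

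H2-K1 passed the test in none of these 6 pairs with TMM and all libraries, and its intervals lay within −0.07 and 0.14. With library totals it passed between defactinib and IN10018 (0.08, edgeR adjusted p = 0.0436) and between VS-4718 and IN10018 (0.09, edgeR adjusted p = 0.0237), and without IN10018 replicate 3 in the former pair (0.11, edgeR adjusted p = 0.0204). H2-D1 between defactinib and IN10018 (0.08, edgeR adjusted p = 0.0588) passed with library totals, by DESeq2, within the 6 libraries and without defactinib replicate 1 or IN10018 replicate 3 (0.08 to 0.11), so that this pair went from 4 genes to 6 with library totals and without IN10018 replicate 3. The lower Tap1 with VS-4718 leaned on single libraries. Without VS-4718 replicate 1 it was −0.36 against GSK2256098 (edgeR adjusted p = 0.107) and −0.36 against IN10018 (edgeR adjusted p = 0.107), without GSK2256098 replicate 3 it was −0.44 (edgeR adjusted p = 0.0569), and without IN10018 replicate 3 it was −0.42 (edgeR adjusted p = 0.0801). Psmb10 between VS-4718 and IN10018 lost its call without VS-4718 replicate 1 or 2 or IN10018 replicate 3 (−0.16 to −0.14), with library totals (−0.13) and with limma-trend (−0.14), and Tap2 in that pair without VS-4718 replicate 2 (0.12) or IN10018 replicate 2 (0.15). Psmb10 between defactinib and VS-4718 was −0.17 without defactinib replicate 3 (edgeR adjusted p = 0.0549). The differences under 0.1 in size, Tapbp and B2m between defactinib and the other compounds, were lost with no filter on low counts and without defactinib replicate 1 in all 3 cases, Tapbp against VS-4718 also within the 6 libraries compared (−0.09, edgeR adjusted p = 0.0568), and in some without 1 of defactinib replicate 2, VS-4718 replicates 1 and 3 or GSK2256098 replicates 2 and 3.

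GSK215 and BSJ-04-146, both at 0.1 µM, differed in 3 of the 10 genes, against 25.9% of all genes called. H2-D1 was higher with GSK215 by 0.10 (95% interval 0.03 to 0.17, edgeR adjusted p = 0.0192), Tap2 by 0.15 (0.04 to 0.26, edgeR adjusted p = 0.0279) and Tapbp by 0.11 (0.04 to 0.17, edgeR adjusted p = 0.00764). H2-D1 was not called without GSK215 replicate 3 (0.08) or BSJ-04-146 replicate 3 (0.07), nor Tap2 without GSK215 replicate 2 or 3 or BSJ-04-146 replicate 1 or 3 (0.13 to 0.15). For the genes that did not pass, the intervals were −0.09 to 0.06 for H2-K1, −0.07 to 0.05 for B2m, −0.24 to 0.46 for Tap1, −0.42 to 0.31 for Nlrc5, 0.03 to 0.77 for Psmb8, −0.48 to 1.37 for Psmb9 and 0.00 to 0.27 for Psmb10. Psmb8 did pass by limma-trend (0.15, limma adjusted p = 0.0173). Psmb10 passed within the 6 libraries compared (0.15, edgeR adjusted p = 0.0482). It also passed without GSK215 replicate 2 (0.18, edgeR adjusted p = 0.0463) or BSJ-04-146 replicate 2 (0.19, edgeR adjusted p = 0.0381). PROTAC FAK degrader 1 was used at a dose 10 times that of these compounds and was not compared with them. Side by side, Tapbp stood at 68.5 ± 2.70 CPM with PROTAC FAK degrader 1, 211 ± 3.82 CPM with GSK215 and 196 ± 1.30 CPM with BSJ-04-146 (SD, n = 3), and H2-K1 at 128 ± 3.26, 205 ± 6.36 and 207 ± 7.89 CPM.

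The other genes of the pathway were taken from lists, whose counts stand beside the same shares of all genes as above. Of 10 peptide loading and trimming genes tested, 8 fell and 0 rose with PROTAC FAK degrader 1 (median log2 change −0.44), where 32.7% of all genes fell and 34.1% rose. They included Erap1, the aminopeptidase that trims peptides to the length class I molecules hold (−1.36, SE 0.0635, edgeR adjusted p = 2.63e-21), and the chaperones of the loading complex Pdia3 (−0.82), Calr (−0.65) and Canx (−0.45). Tapbpl, a relative of tapasin, had −0.08 and did not pass. With GSK215 the same list held 4 that rose and 5 that fell, against 27.4% and 27.2% of all genes. Tapbpl (0.76), Erap1 (0.37) and Calr (0.18) were among those that rose, and the cytosolic peptidases Thop1 (−0.56), Ide (−0.37) and Tpp2 (−0.31) were among those that fell. With BSJ-04-146, 1 rose (Tapbpl, 0.45) and 7 fell, against 27.7% and 26.9%. The remaining counts of higher and lower genes were 4 and 2 with defactinib, 1 and 3 with VS-4718, 0 and 1 with GSK2256098 and 0 and 7 with IN10018. Erap1 (0.30) and Calr (0.19) rose with defactinib. With IN10018 those that fell included Lnpep (−0.25), Canx (−0.18), Calr (−0.16) and Erap1 (−0.17, lost without DMSO replicate 1 or 2 or IN10018 replicate 1 or 3, at −0.16 to −0.13). Of all genes, 11.4% rose and 11% fell with defactinib, 20.4% and 18.9% with VS-4718, 6.36% and 6.09% with GSK2256098 and 6.44% and 6.85% with IN10018.

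Among the constitutive catalytic subunits, their assembly factor and the proteasome activators, 5 of 8 fell and 0 rose with PROTAC FAK degrader 1, where 66.8% of all genes were called. They included Psmb5 (−0.34), Psmb7 (−0.39), the assembly factor Pomp (−0.45) and the nuclear activator Psme3 (−0.53). The median was −0.36. With GSK215, 2 rose and 6 fell (54.7% of all genes called), and with BSJ-04-146, 2 rose and 3 fell (54.6%). The 2 that rose with both were Psme1 (0.21 and 0.25) and Psme2 (0.47 and 0.46), the subunits of the interferon-inducible activator PA28. Psme2 also rose with VS-4718 (0.43), GSK2256098 (0.28) and IN10018 (0.26), so with 5 of the 7 compounds. With VS-4718, 2 of the 8 rose and 2 fell (39.2% of all genes called). The counts were 0 and 4 with defactinib (22.4%), 1 and 2 with GSK2256098 (12.5%) and 1 and 1 with IN10018 (13.3%).

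The class Ib and class I-like heavy chains, of which 17 were tested, gave 9 that rose and 2 that fell with GSK215, 8 and 2 with BSJ-04-146, 4 and 3 with PROTAC FAK degrader 1 and 3 and 2 with VS-4718. The shares of all genes called were 54.7%, 54.6%, 66.8% and 39.2%. Defactinib, GSK2256098 and IN10018 each gave 2 and 0, against 22.4%, 12.5% and 13.3% of all genes called. Fcgrt, the heavy chain of the neonatal Fc receptor, rose with GSK215 (1.86, SE 0.0868, edgeR adjusted p = 8.75e-21), BSJ-04-146 (1.62) and PROTAC FAK degrader 1 (1.17), and by less with VS-4718 (0.58) and defactinib (0.52). Mr1, which presents vitamin metabolites to MAIT cells, rose with the same 3 degraders (0.78, 0.62 and 1.31), with defactinib (0.23) and with GSK2256098 (0.22, lost without DMSO replicate 3 or GSK2256098 replicate 1 or 3, at 0.18 to 0.21). H2-T23, which encodes Qa-1, rose with GSK215 (0.55), BSJ-04-146 (0.51), PROTAC FAK degrader 1 (0.72) and IN10018 (0.37, lost without DMSO replicate 2 or 3 or IN10018 replicate 1 or 3, at 0.28 to 0.38). Cd1d1, which presents lipids to NKT cells, rose with GSK215 (1.61), BSJ-04-146 (1.75) and VS-4718 (0.38, adjusted p = 0.0469 by edgeR and 0.0719 by DESeq2, and lost without any DMSO replicate or VS-4718 replicate 2 or 3, at 0.27 to 0.40) and fell with PROTAC FAK degrader 1 (−0.56, but −0.38 with an edgeR adjusted p = 0.0822 without replicate 3 of that group). H2-M3, which presents formylated peptides, fell with VS-4718 (−0.67) and BSJ-04-146 (−0.51). Its falls with PROTAC FAK degrader 1 (−0.27) and GSK215 (−0.24) passed too but were lost with library totals (−0.19 and −0.12) and without DMSO replicate 2 (−0.16 and −0.13), the former also without replicate 3 of its group (−0.22) and the latter without GSK215 replicate 1 or 3 (−0.26 and −0.16), by DESeq2, by limma-trend, with no filter and within the 6 libraries. The list medians were 0.45 with GSK215, 0.32 with BSJ-04-146 and −0.03 with PROTAC FAK degrader 1. Several genes of this list are near copies of each other, so their counts carry the uncertainty given for H2-K1 and H2-D1.

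**Figure D5:**
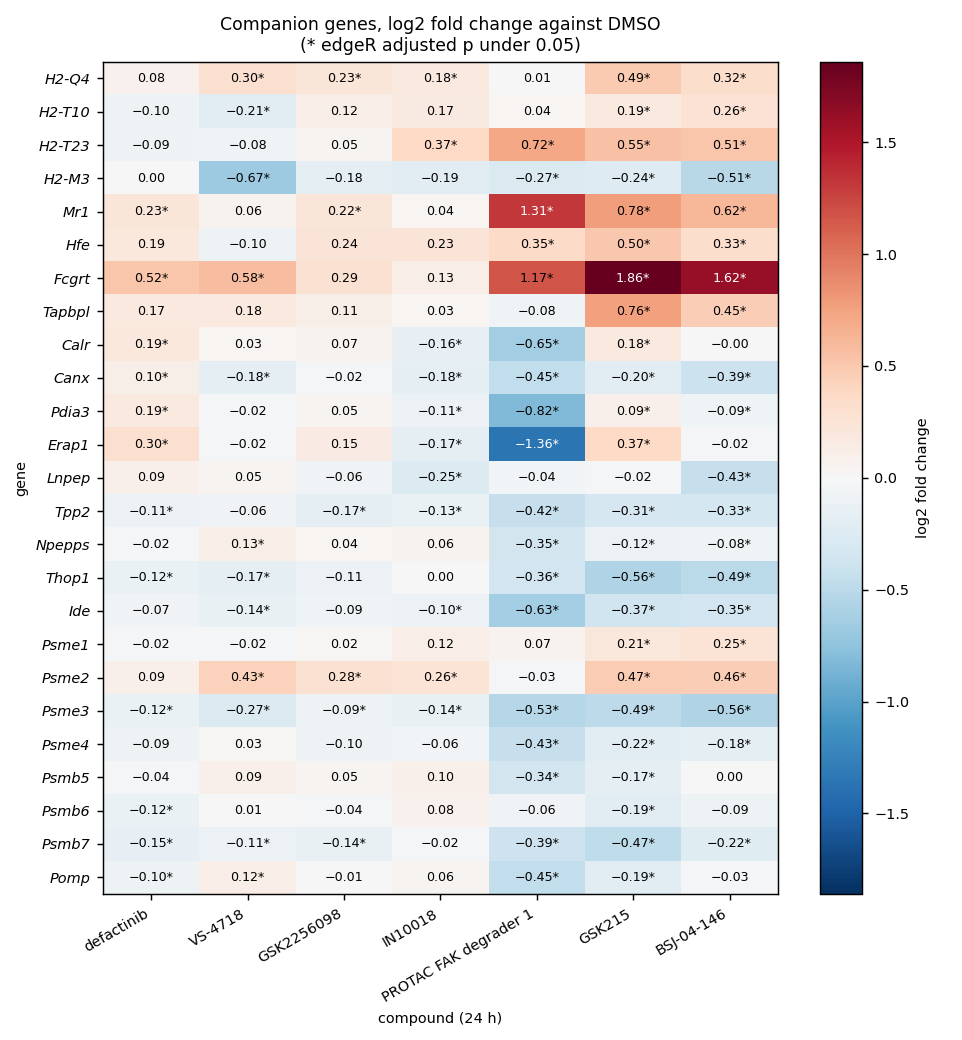
Log2 fold change against DMSO of class Ib and class I-like heavy chains, peptide loading and trimming genes and proteasome genes (rows) for each compound (columns), with an asterisk where the edgeR adjusted p was under 0.05. Fcgrt has the highest value (1.86 with GSK215) and Erap1 the lowest (−1.36 with PROTAC FAK degrader 1).

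Of 13 transcription regulators of class I genes, 8 rose and 4 fell with PROTAC FAK degrader 1, 5 and 5 with GSK215, 6 and 6 with BSJ-04-146 (medians 0.16, 0.01 and −0.01), 5 and 2 with VS-4718, 0 and 3 with defactinib, 1 and 0 with GSK2256098 and 2 and 0 with IN10018. Of all genes, 34.1% rose and 32.7% fell with PROTAC FAK degrader 1, 27.4% and 27.2% with GSK215 and 27.7% and 26.9% with BSJ-04-146, and the shares called in either direction were 39.2% with VS-4718, 22.4% with defactinib, 12.5% with GSK2256098 and 13.3% with IN10018. Rfx5, the DNA-binding subunit of the RFX complex that works with NLRC5, rose with PROTAC FAK degrader 1 (0.95, SE 0.0568, edgeR adjusted p = 6.69e-18), BSJ-04-146 (0.53) and GSK215 (0.44). Its partner Rfxank rose with the same compounds (0.51, 0.34 and 0.35) and with VS-4718 (0.29). Rfxap, the remaining subunit of the complex, rose with PROTAC FAK degrader 1 (0.36) and fell with GSK215 (−0.30) and BSJ-04-146 (−0.29). Nfyc, a subunit of the factor that binds CCAAT, fell with PROTAC FAK degrader 1 (−0.67), BSJ-04-146 (−0.22), GSK215 (−0.28) and defactinib (−0.15, lost without DMSO replicate 2 or 3 or defactinib replicate 1 or 3, at −0.16 to −0.12). Ezh2, a repressive histone methyltransferase, fell with PROTAC FAK degrader 1 (−0.61), BSJ-04-146 (−0.14), GSK215 (−0.20), defactinib (−0.14) and VS-4718 (−0.13). Irf1, a transcription factor induced by interferon-gamma, rose with PROTAC FAK degrader 1 (0.16), GSK215 (0.34), BSJ-04-146 (0.29), VS-4718 (0.21) and IN10018 (0.14, lost without DMSO replicate 2 or 3 or IN10018 replicate 2 or 3, at 0.13 to 0.14). With library totals in place of TMM the falls of Nfyc with BSJ-04-146 (−0.11) and defactinib (−0.13) and of Ezh2 with both 0.1 µM compounds (−0.03 and −0.08) no longer passed.

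Of 15 interferon receptor and signalling genes, 10 rose and 3 fell with PROTAC FAK degrader 1, 9 and 2 with GSK215, 8 and 2 with BSJ-04-146 (medians 0.20, 0.21 and 0.19), 8 and 1 with VS-4718, 3 and 1 with defactinib, 1 and 1 with GSK2256098 and 1 and 0 with IN10018. The shares of all genes called were 66.8%, 54.7% and 54.6% with the 3 degraders, 39.2% with VS-4718, 22.4% with defactinib, 12.5% with GSK2256098 and 13.3% with IN10018. Tyk2, a kinase of the type I interferon receptor, rose with PROTAC FAK degrader 1 (0.90), GSK215 (0.49), BSJ-04-146 (0.60), VS-4718 (0.30) and IN10018 (0.19, lost with the replicate block and without DMSO replicate 1 or 2 or IN10018 replicate 2 or 3, at 0.14 to 0.20). Ifngr1, the ligand-binding chain of the interferon-gamma receptor, fell with PROTAC FAK degrader 1 (−0.61, edgeR adjusted p = 5.95e-13) and rose with GSK215 (0.19). Some of these splits moved with the scaling. With library totals in place of TMM, the GSK215 counts of higher and lower genes became 10 and 0 for class Ib, 4 and 4 for peptide loading (median from −0.07 to 0.06), 2 and 3 for the proteasome list and 7 and 3 for the regulators, and with BSJ-04-146 they became 2 and 5, 3 and 2 and 6 and 1 for the last 3 lists. Of the class II genes, 3 of 9 passed the filter, and H2-Aa, H2-Ab1 and H2-Eb1 held 0 or 1 count in each library. Of the 3 tested, 2 rose and 0 fell with GSK215 and with BSJ-04-146, against 54.7% and 54.6% of all genes called. With VS-4718, 1 rose and 0 fell (39.2%), and none was called with the other compounds. The counts per library were low, at 2 to 17 for Ciita, 4 to 15 for Cd74 and 9 to 42 for H2-DMa. The class II accessory gene H2-DMa rose with GSK215 (1.28), BSJ-04-146 (1.09) and VS-4718 (0.95, but 0.73 without DMSO replicate 2, where the call was lost).

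The patterns of H2-K1, B2m, Tap1, Psmb8 and Nlrc5 over the 7 compounds were set beside those of 10277 other genes, by the root mean square difference between the 7 log2 fold changes. The nearest to H2-K1 were Ints13 (0.0395), Fam111a (0.0475) and Epdr1 (0.0478), and the nearest to B2m were Tnrc6a (0.0373), Agpat3 (0.0394) and Atg16l1 (0.0466). Tap1 had no such close neighbour, with Carf (0.130), Bbs4 (0.161) and Gtpbp2 (0.170) first, and Psmb8 was nearest to E130307A14Rik (0.167). Nlrc5 was nearest to Dnm1 (0.0668), Serhl (0.0819) and Grcc10 (0.101). Among the 10 genes themselves, H2-D1 and B2m were nearest to each other (0.0715), while the member nearest to H2-K1 was Psmb10 (0.185). The 7 fold changes share the DMSO libraries, so these values describe likeness and carry no test.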

How the data were processed

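RNA-seq counts of 24 MS03 libraries in 8 groups of 3 were used. The authors deposited raw counts per gene; the submitters' processing notes name Trimmomatic 0.36, STAR 2.5.2b, featureCounts from Subread 1.5.2 and GRCm38, while strand setting and treatment of reads with several matches were not given in the sources used here. Of 49315 genes, 174 without a symbol kept their ID, and 48970 IDs were found in GENCODE M21. From these counts, edgeR 4.0.16 (R 4.3.3; filterByExpr, TMM, quasi-likelihood test) was fitted once to all 24 libraries with 16 residual degrees of freedom. Benjamini-Hochberg adjustment ran over the 16070 genes tested for each compound, and over genes times 11 for the pairs at equal dose, with a threshold of 0.05. All 10 genes are named. Of each companion list, only some called changes are named. They came from the 4 largest per compound among genes with a mean of at least 5 CPM. Others of that rank were left out, such as Stat2 with GSK215 (0.54) and BSJ-04-146 (0.73). Further genes were named for their role (among them Cd1d1, Canx, Psmb5, Irf1 and H2-DMa), picked after their values were seen. Members and lists were chosen with earlier results of these data known. The likeness measure took genes of at least 5 CPM on average. Alternatives used DESeq2 1.42.0, limma 3.58.1 on log2(CPM + 4), library totals, no filter, the 6 libraries compared, a replicate block and leaving out each library, and were repeated for named companions and the heavy chain ratio after seeing the data. Replicates differed by more than counting noise (chi-square per degree of freedom 1.73 to 8.62 over 24 pairs). Promoters came from RefSeq (GRCm38.p6). The fit was tested on simulated data. Precision is limited by depth for Psmb9, Psmb8, Nlrc5 and Tap1.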

Additional observations from a re-analysis of the deposited data

How the results depend on the processing

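Of the 33 changes against DMSO that passed the test, 31 passed in every alternative fit, and leaving out any 1 library lost none. The other 2 were the falls of H2-K1 with GSK215 and BSJ-04-146, which library totals in place of TMM took out of the called set (−0.06 and −0.06). In the other direction, 7 changes against DMSO passed only in some alternative, H2-K1 and H2-D1 with defactinib, H2-K1 (0.10) and Psmb10 (−0.14) with VS-4718, Psmb8 with GSK2256098 (0.58), Tap1 with GSK215 and Psmb10 with BSJ-04-146 (−0.16), and Tap1 with VS-4718 passed without DMSO replicate 1 (−0.46) or VS-4718 replicate 3 (−0.51). With no filter on low counts, the genes called between defactinib and GSK2256098 went from 3 to 1, and leaving out 1 library gave 1 to 3 there. Between GSK215 and BSJ-04-146, leaving out 1 library gave 1 to 4 in place of 3. Over all genes, the 2001 called with GSK2256098 became 1298 to 1622 on leaving out 1 library, the lowest without GSK2256098 replicate 3. The 2136 called with IN10018 became 1380 to 1824, with 1380 without DMSO replicate 2 and 1395 without IN10018 replicate 3. Only changes near 0 that had not passed the test changed sign: H2-D1 with IN10018 (DESeq2 −0.00080, limma-trend −0.00031; −0.020 to 0.026 leaving out 1 library) and Psmb10 with GSK215 (DESeq2 −0.0031, no filter −0.0097; −0.040 to 0.043). On leaving out 1 library the same held for Tap1 with defactinib (−0.17 to 0.12), H2-K1 with IN10018 (−0.034 to 0.031), Tapbp with IN10018 (−0.0062 to 0.048), Psmb10 with IN10018 (−0.016 to 0.067), Psmb10 with GSK2256098 (−0.079 to 0.0043) and Psmb9 with BSJ-04-146 (−0.39 to 0.40). The cause of these shifts was not tested. Same-numbered libraries of 2 groups did not deviate together (every pair over 0.1 in 0 of 18 comparisons, correlations from −0.253 to 0.197), and with a replicate block the members called stayed 9 with PROTAC FAK degrader 1, 7 with GSK215 and 7 with BSJ-04-146. With library totals in place of TMM, the members called higher and lower went from 6 and 1 to 7 and 0 with GSK215 and to 6 and 0 with BSJ-04-146, and all genes from 4407 and 4379 to 6190 and 2867 with GSK215, from 4451 and 4320 to 6018 and 2966 with BSJ-04-146, and from 3273 and 3030 to 4015 and 2394 with VS-4718. Members between VS-4718 and IN10018 went from 4 and 2 to 5 and 1.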
